A study of Ovis aries with 24 samples.

Results

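The genes described here are those expressed in the rumen epithelium well above the omasum epithelium of lambs, with a highest abomasum value above a set share of the rumen level. They were chosen by measured values, with CPM the count of a gene divided by its library total and multiplied by 1000000. A gene was taken when its lowest value in the 6 rumen libraries was at least 5 CPM and at least 2 times its highest value in 4 omasum libraries, and when its highest abomasum value was above 5% of that rumen minimum. Of the 27054 genes listed, 10227 had a rumen minimum of 5 CPM or more, 14 of these also reached the ratio to the omasum, and 6 also met the condition on the abomasum. These 6 genes are known here by Ensembl identifier, since the files pair none of the identifiers with a symbol and 0 of them matched the RefSeq sheep gene table. What their products do is therefore not stated. The difference between rumen and omasum is what chose them, so that it is given as a description and not tested.

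The rumen, reticulum and omasum form the forestomach of ruminants and are lined by a keratinized stratified squamous epithelium, while the abomasum is the glandular stomach that secretes acid and digestive enzymes. In the suckling lamb milk passes to the abomasum, and the rumen grows and takes up fermentation as solid feed is eaten. The rumen and reticulum open into each other, and digesta reach the omasum only after them, so that the reticulum lies between the other forestomach chambers in the passage of feed.

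RNA sequencing covered the epithelium of rumen, reticulum, omasum and abomasum at d5 and d10 of age, with 3 libraries in each of 8 groups. The study's methods describe the d5 rumen donors as male Hu lambs raised on ewe's milk, with starter pellets offered from d10. Their rumen epithelium came from the ventral sac. The methods give no such description of the d10 lambs or of the other chambers. No group had a treatment or a genetic change, and the labels do not say which libraries come from 1 lamb. Where libraries are not from separate lambs, the p-values measure only the spread between these libraries.

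The libraries held 13041697 to 19650121 counts, so that 1 count stood for 0.0509 to 0.0767 CPM. A sum over 27 genes set apart in the abomasum (100 CPM or more in all of its libraries, and no more than 1% of its level in the rumen) was at 7.37% of the mean abomasum level in omasum d5 library 1 and at 94.1% in library 2. It was at 0.0838% or less in the 16 libraries of rumen, reticulum and the rest of the omasum. In the 6 rumen libraries a low sum was set by the choice of the 27 genes, and nothing is read from it there. The rule leaves out omasum d5 libraries 1 and 2, so that d5 is represented by 1 omasum library and d10 by 3. The chambers could not be checked against named marker genes, as the identifiers carry no symbols.

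**Figure D1:**
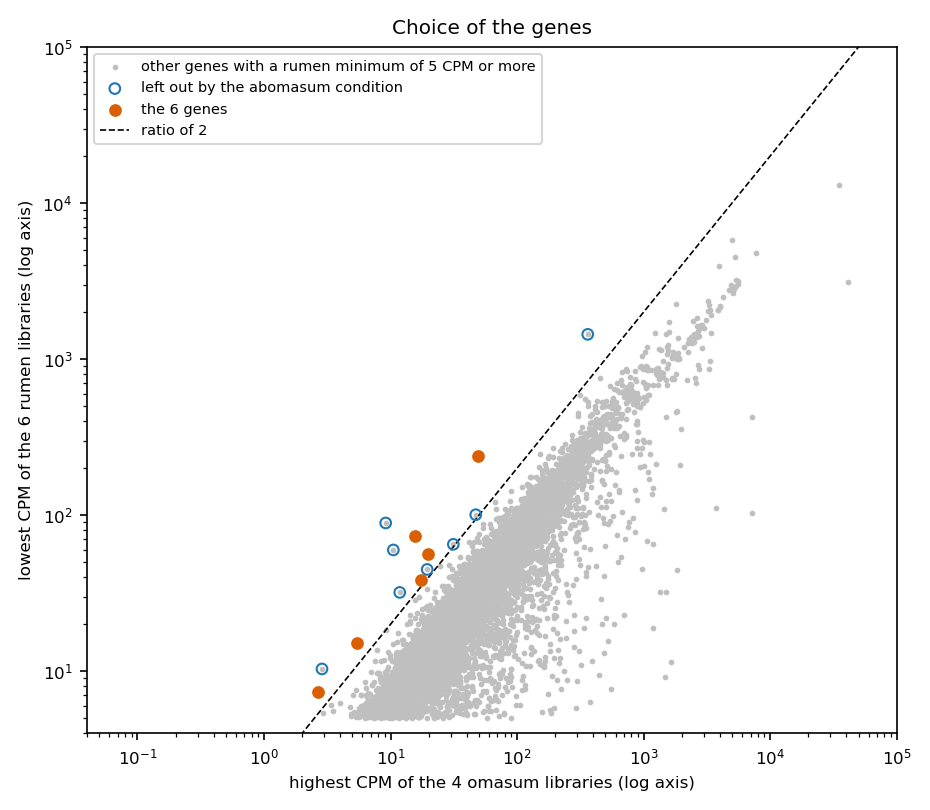
Lowest CPM of the 6 rumen libraries (vertical, log axis) against the highest CPM of the 4 omasum libraries (horizontal, log axis) for the 10227 genes with a rumen minimum of 5 CPM or more. Filled points are the 6 genes, open points the 8 genes that reached the ratio but not the abomasum condition, and the dashed line is a ratio of 2.

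The ratio of rumen minimum to omasum maximum was highest for ENSOARG00000018171 (4.87) and ENSOARG00000005159 (4.73), and it was 2.86, 2.80 and 2.78 for ENSOARG00000017124, ENSOARG00000010773 and ENSOARG00000003815. The lowest was that of ENSOARG00000000742, at 2.19. Just outside, ENSOARG00000007958 had a ratio of 1.99 (rumen minimum 18.3 CPM, omasum maximum 9.16 CPM) and ENSOARG00000003288 one of 1.92 (47.3 and 24.7 CPM). The genes just inside were ENSOARG00000000742 (38.3 and 17.5 CPM) and ENSOARG00000003815 (7.41 and 2.67 CPM). Between a ratio of 1.5 and 2 lay 21 further genes that met the other conditions, so that the threshold does not fall in a gap.

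ENSOARG00000018171 was at 286, 309 and 400.4 CPM in the rumen at d5 and at 241, 261 and 626 CPM at d10. In the reticulum it was at 68.4, 36.8 and 124 CPM at d5 and at 114, 222 and 236 CPM at d10. The omasum libraries held 19.2 CPM at d5 and 27.9, 49.5 and 43.6 CPM at d10. Rumen d10 library 3 stood above the other rumen libraries, and every rumen library lay above every reticulum library, by a small margin at d10 (241 against 236 CPM). Of the 6 reticulum libraries, 5 lay above the omasum maximum. The abomasum ran from 26.1 to 72.5 CPM (median 37.1) and overlapped the omasum.

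ENSOARG00000005159 was at 74.0, 83.1 and 103 CPM in the rumen at d5 and at 341, 379 and 156 CPM at d10. The reticulum held 34.8, 40.7 and 32.4 CPM at d5 and 66.5, 53.2 and 57.3 CPM at d10. The omasum was at 10.9 CPM at d5 and at 14.8, 11.4 and 15.7 CPM at d10. No 2 chambers overlapped, in the order rumen, reticulum, omasum and abomasum, and both rumen and reticulum were higher in every d10 library than in every d5 library. The abomasum was the lowest chamber, at 0.78, 1.66 and 1.23 CPM at d5 and 1.19, 3.78 and 4.96 CPM at d10. Only d10 libraries 2 and 3 of the abomasum passed 5% of the rumen minimum, so that the gene meets that condition through them.

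ENSOARG00000017124 was the gene with the highest abomasum level relative to the rumen. Its rumen values ran from 56.8 to 104 CPM (median 73.2), its reticulum values from 18.8 to 63.5 CPM (median 41.8) and its abomasum values from 53.2 to 174 CPM (median 111). The omasum was at 19.9 CPM at d5 and at 8.80, 10.8 and 6.70 CPM at d10. Of the 4 chambers the omasum had the lowest mean, and 5 of the 6 abomasum libraries reached the rumen minimum. Reticulum d10 library 1, at 18.8 CPM, fell to the omasum range, while libraries 3 of d5 and 2 of d10 reached the rumen range.

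ENSOARG00000010773 was the steadiest of the 6 in the rumen, at 15.3 to 19.3 CPM in all 6 libraries (coefficient of variation 8.71%). The reticulum held 7.35, 9.11 and 15.0 CPM at d5 and 9.62, 9.76 and 15.8 CPM at d10, of which only d10 library 3 reached the rumen range. The omasum held 3.74 CPM at d5 and 5.45, 2.62 and 4.72 CPM at d10, all below every reticulum library. The abomasum was close to 0. It held 2, 18 and 1 counts at d5 and 0 counts in each of the d10 libraries, which allows up to 0.199 CPM (3 counts, counting error only). The gene meets the abomasum condition through d5 library 2 alone, at 1.2 CPM (exact Poisson 95% interval 0.71 to 1.89 CPM).

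ENSOARG00000003815 had the lowest level of the 6 relative to the threshold of 5 CPM. It was at 7.41, 9.12 and 13.1 CPM in the rumen at d5 and at 16.8, 8.56 and 24.2 CPM at d10. The reticulum held 2.12, 2.19 and 1.70 CPM at d5 and 5.26, 2.74 and 1.43 CPM at d10, below every rumen library. The omasum was at 1.93 CPM at d5 and at 1.53, 0.76 and 2.67 CPM at d10, so that 4 of the 6 reticulum libraries lay within or below it. Its abomasum values were the most uneven of the 6 genes apart from ENSOARG00000010773, from 0.064 CPM (1 count) in d10 library 3 to 11.3 CPM (170 counts) in d5 library 2.

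ENSOARG00000000742 was at 38.3, 49.1 and 52.7 CPM in the rumen at d5 and at 65.8, 40.7 and 40.6 CPM at d10. The reticulum held 18.9, 22.5 and 25.5 CPM at d5 and 44.9, 20.2 and 12.2 CPM at d10. The omasum was at 15.3 CPM at d5 and at 12.4, 12 and 17.5 CPM at d10. Reticulum libraries of d10 thus spanned from the omasum range to the rumen range, while those of d5 lay between. The abomasum was the lowest chamber by its mean, at 4.99 to 17.5 CPM (median 6.59), and overlapped the omasum through d10 library 1.

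**Figure D2:**
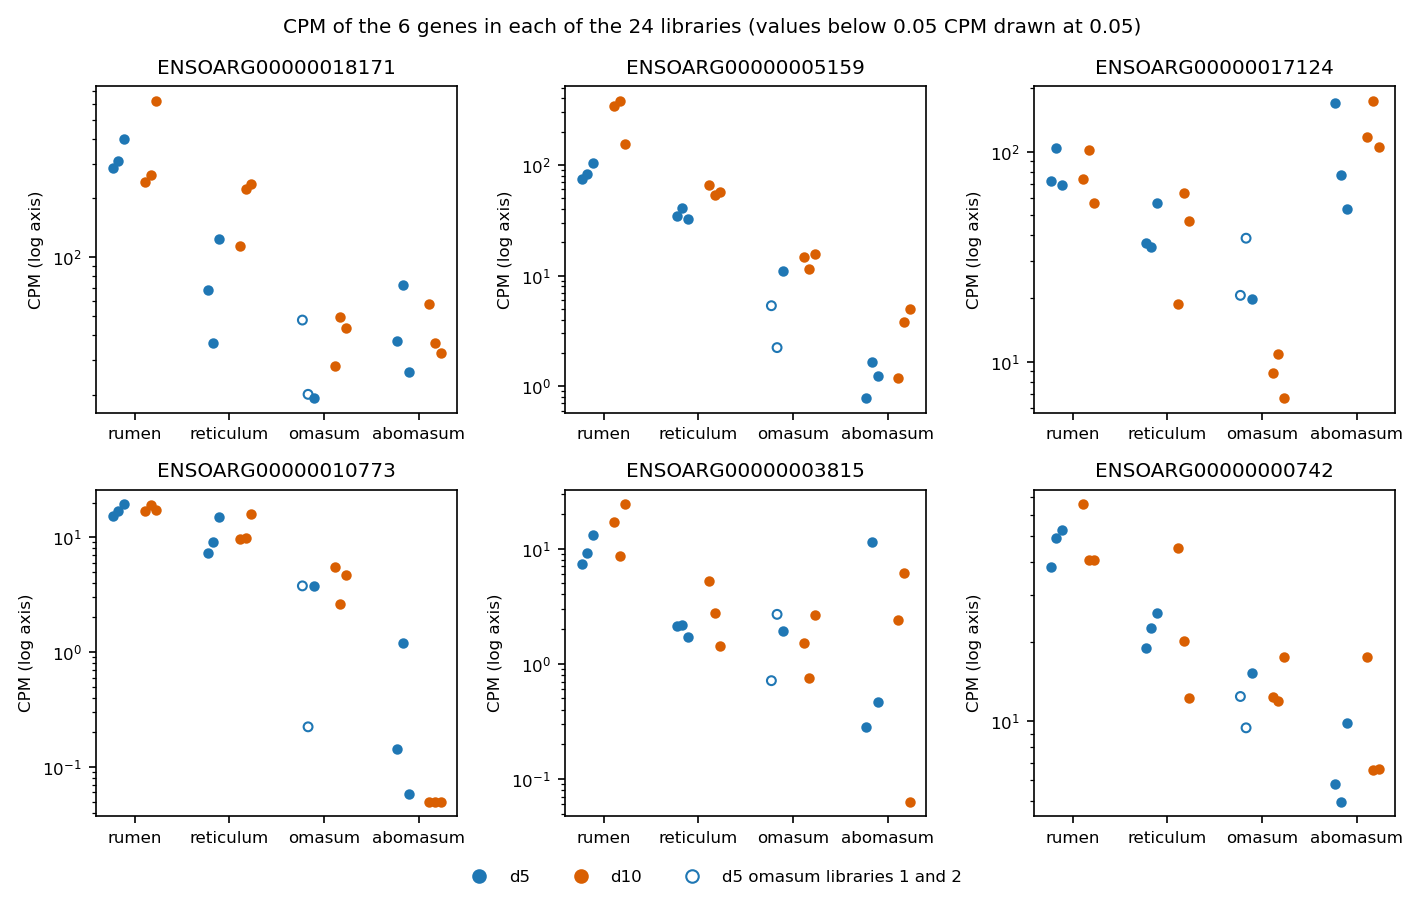
CPM (log axis) of the 6 genes in each of the 24 libraries, with chambers on the horizontal axis, d5 in blue and d10 in orange; each point is 1 library. Open points are the omasum d5 libraries that the rule leaves out; rumen points lie at least 2.19 times above the filled omasum points in every panel, and the abomasum ranges from close to 0 (ENSOARG00000010773) to above most rumen points (ENSOARG00000017124).

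Summed over the 6 genes, the rumen libraries held 494 to 921 CPM, the reticulum libraries 146 to 371 CPM and the 4 omasum libraries 70.9 to 90.9 CPM. The abomasum held 90.9 to 227 CPM, most of it from ENSOARG00000017124 and ENSOARG00000018171. In bulk epithelium, fewer cells of a type and less RNA per cell cannot be told apart.

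The reticulum was placed between the chambers by its mean log2 CPM (0.5 added to each CPM), on a scale where 0 is the omasum mean and 1 the rumen mean. Its mean lay between both for 6 of 6 genes, with a median position of 0.52. A gene chosen for a high rumen and a low omasum leaves much room between them, so that a place in between is partly set by the choice. Of the genes just outside the ratio of 2, ENSOARG00000007958 had a position of 1.01, not in between, and ENSOARG00000003288 one of 0.60. The position was 0.66 ± 0.22 (SD, n = 6 reticulum libraries) for ENSOARG00000017124 and 0.66 ± 0.21 for ENSOARG00000010773, nearer to the rumen. It was 0.52 ± 0.31 for ENSOARG00000018171 and 0.51 ± 0.12 for ENSOARG00000005159, midway on the log scale. It was 0.38 ± 0.35 for ENSOARG00000000742 and 0.17 ± 0.21 for ENSOARG00000003815, nearer to the omasum. The SDs of neighbours in this order overlap, and the positions at the ends of the order are about 0.5 apart.

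Of the 36 single values (6 genes in 6 reticulum libraries), 25 lay strictly between the omasum maximum and the rumen minimum, 32 lay below the rumen minimum and 29 above the omasum maximum. Per gene the number of reticulum libraries strictly between was 6 for ENSOARG00000005159, 5 each for ENSOARG00000018171 and ENSOARG00000010773, 4 for ENSOARG00000000742, 3 for ENSOARG00000017124 and 2 for ENSOARG00000003815. In the 36 comparisons of a rumen library with the reticulum library of the same age and number, the rumen was higher in 36, which the choice of genes with a high rumen minimum favours. The 6 genes share the same library pairs, so that the 36 are not independent. On this scale the median of all genes tested was also higher in the rumen, by 0.13 (log2 CPM). The share of all genes is not given for these counts, and nothing is read from them about the 6 as a set. The ratio in these comparisons was smallest for ENSOARG00000010773 (1.08 to 2.08) and largest for ENSOARG00000003815 (3.13 to 16.9). The labels do not say that equal numbers mark 1 lamb.

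**Figure D3:**
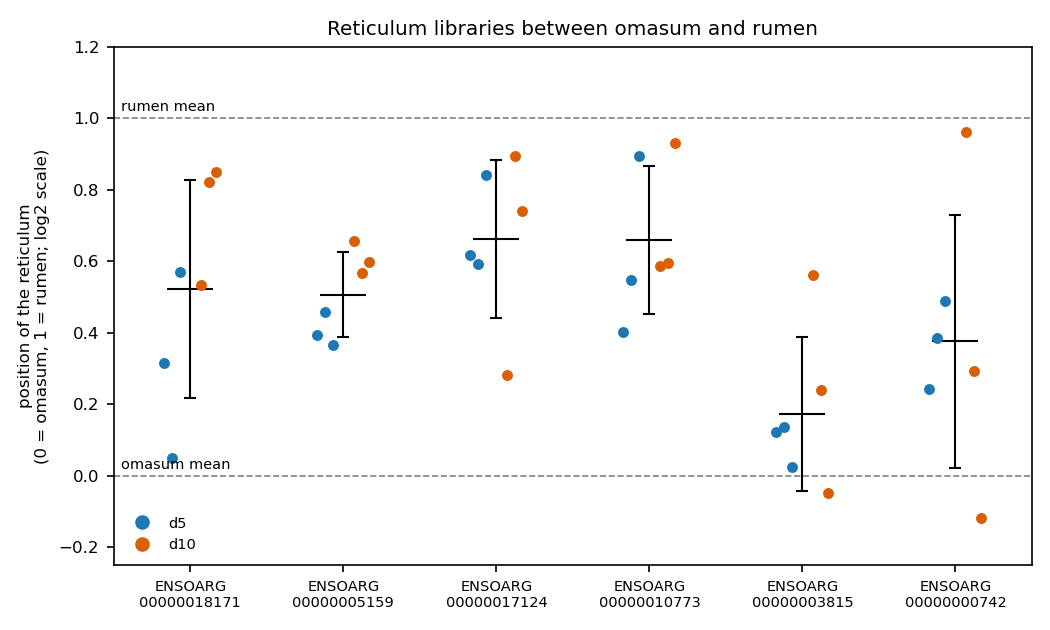
Position of each reticulum library between omasum (0) and rumen (1) on the log2 CPM scale for the 6 genes, with d5 in blue and d10 in orange. Bars are the mean ± SD of the 6 libraries; the means run from 0.17 for ENSOARG00000003815 to 0.66 for ENSOARG00000017124.

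The position was higher at d10 than at d5 for 5 of the 6 genes, of which ENSOARG00000000742 barely differed (0.372 and 0.379). On this scale the median of all genes tested in the reticulum was also higher at d10, by 0.07 (log2 CPM). The share of all genes is not given for the count, and nothing is read from it about the 6 as a set. For ENSOARG00000005159 the position was 0.41 ± 0.05 at d5 and 0.61 ± 0.05 at d10 (SD, n = 3 each). For ENSOARG00000018171 it was 0.31 ± 0.26 and 0.74 ± 0.17. The other 4 genes differed between the ages by less than the SD at d10. Both chambers that set the ends of this scale enter with both ages, so that it shows the reticulum values of d5 and d10 on 1 ruler. It does not show the distance to the rumen of the same age. For ENSOARG00000005159 the rumen and reticulum means were 86.8 and 35.9 CPM at d5 and 292 and 59.0 CPM at d10, further apart at d10. For ENSOARG00000018171 they were 332 and 76.3 CPM at d5 and 376 and 191 CPM at d10, closer at d10.

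Differences were tested with edgeR (quasi-likelihood test, two-sided, Benjamini-Hochberg adjustment over all genes tested, threshold 0.05), which scales the libraries by TMM (the trimmed mean of M-values). Without it, the median gene was higher by 0.17 (log2 CPM) at d10 than at d5 in the rumen, by 0.13 in the rumen than in the reticulum, and lower by 0.13 in the reticulum than in the omasum. With TMM over all 24 libraries these medians were within 0.03 of 0. Each fit took TMM within its own libraries, where the median log2 fold change was 0.008, -0.006 and 0.011 in the same order. The fold changes hereafter are relative to the scale of their own fit.

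Between rumen and reticulum, in a fit of the 12 libraries averaged over both ages, 4 of the 6 genes were called, all higher in the rumen, where 5.65% of all genes tested were called in that direction. The rumen libraries chose the genes, so that nothing is read from this count about the 6 as a set. ENSOARG00000003815 was 4.73-fold higher in the rumen (log2 2.24 ± 0.32 SE, adjusted p = 0.00249) and ENSOARG00000005159 3.19-fold (log2 1.67 ± 0.20, adjusted p = 0.000944). ENSOARG00000018171 was 2.64-fold higher (log2 1.40 ± 0.35, adjusted p = 0.0227) and ENSOARG00000000742 1.85-fold (log2 0.89 ± 0.26, adjusted p = 0.039). The rumen and reticulum did not differ past the threshold for ENSOARG00000017124 (log2 0.76 ± 0.28, adjusted p = 0.0887) and ENSOARG00000010773 (log2 0.52 ± 0.22, adjusted p = 0.135). Every rumen library was above every reticulum library for 3 genes (ENSOARG00000018171, ENSOARG00000005159 and ENSOARG00000003815), where 2.82% of all genes did so. The rule asked for a high minimum over these same rumen libraries, which favours such a separation, and nothing is read from the count. With CPM scaled by TMM over all 24 libraries, the separation held for 2 of them and no longer for ENSOARG00000018171.

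The calls of ENSOARG00000003815 and ENSOARG00000005159 held without any one of the 12 libraries. That of ENSOARG00000018171 was lost without reticulum d5 library 1 (adjusted p = 0.0527 in edgeR), rumen d5 library 3 (0.0566) or rumen d10 library 3 (0.0649). That of ENSOARG00000000742 held without reticulum d10 library 1 (0.0045) or 3 (0.0488) or rumen d10 library 2 (0.0497), and was lost without any one of the other 9, at 0.0518 to 0.0949. ENSOARG00000010773 passed the threshold without reticulum d5 library 3 (0.0449) or d10 library 3 (0.0338), which held its highest reticulum values. In the fit of all 24 libraries the calls of ENSOARG00000003815 (0.0585) and ENSOARG00000000742 (0.0614) were lost.

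Between reticulum and omasum (6 and 4 libraries, with age as a term), 2 of the 6 genes were called, both higher in the reticulum, where 0.1% of all genes tested were called in that direction. The omasum libraries chose the genes, so that this count is a description too. ENSOARG00000005159 was 4.24-fold higher in the reticulum (log2 2.08 ± 0.16, adjusted p = 0.000299) and ENSOARG00000018171 4.96-fold (log2 2.31 ± 0.39, adjusted p = 0.0406). ENSOARG00000017124 (log2 1.99 ± 0.39, adjusted p = 0.0701) and ENSOARG00000010773 (log2 1.62 ± 0.34, adjusted p = 0.0807) were close to the threshold. ENSOARG00000000742 (log2 0.88 ± 0.30, adjusted p = 0.357) and ENSOARG00000003815 (log2 0.74 ± 0.43, adjusted p = 0.553) had the smallest differences. Every reticulum library was above each of the 4 omasum libraries for ENSOARG00000005159 and ENSOARG00000010773, where 0.654% of all genes did so. A low maximum over these same omasum libraries was part of the rule, so that nothing is read from this count either.

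The call of ENSOARG00000005159 in reticulum against omasum held without any one of the 10 libraries, at an adjusted p of up to 0.0043. That of ENSOARG00000018171 was lost without any one of the omasum libraries (0.0983 to 0.199) and when a reticulum library was left out in 4 of 6 cases (0.0563 to 0.0688, the exceptions being d5 library 2 and d10 library 1). In the d10 libraries alone, a fit chosen after seeing the data, the calls of both genes were lost (0.0809 and 0.246). ENSOARG00000017124 passed the threshold without reticulum d10 library 1 (0.0491), the library in which it fell to the omasum range. DESeq2 also called ENSOARG00000017124 in both comparisons (adjusted p = 0.0468 for rumen against reticulum) and ENSOARG00000010773 in reticulum against omasum (0.000528). Whether a gene differed more from the rumen than from the omasum was not tested. For ENSOARG00000000742 both differences were of like size (log2 0.89 ± 0.26 and 0.88 ± 0.30).

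The change from d5 to d10 was not used in choosing the genes, although a minimum over both ages favours steady genes. In the rumen, 1 of the 6 genes was called (edgeR, 3 libraries at each age), against 9.84% of all genes tested. ENSOARG00000005159 rose 3-fold (log2 1.58 ± 0.32, adjusted p = 0.0285). It was the only one of the 6 with every d10 rumen library above every d5 library, which held for 30.2% of all genes by CPM over the total and for 16.9% by TMM-scaled CPM. The other 5 genes had log2 changes of -0.26 to 0.56, with adjusted p from 0.36 to 0.989, and ENSOARG00000018171 was at 0.01 ± 0.35. The call of ENSOARG00000005159 was lost without d5 library 1 (adjusted p = 0.1), 2 (0.0969) or 3 (0.0728) or d10 library 1 (0.0895), and held without d10 library 2 (0.041) or 3 (0.0052). It was also lost in the fit of all 24 libraries (0.0615). Its log2 change stayed between 1.34 and 1.89 in all alternatives run.

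In the reticulum, which the rule did not use, 0 of the 6 genes and 0% of all genes tested were called for age by edgeR (1092 of all genes at an unadjusted p under 0.05). DESeq2 called 149 genes and limma-voom 0, and 0 of the 6 in both. ENSOARG00000005159 was again higher in every d10 library than in every d5 library, which held for 6.36% of all genes by CPM over the total and for 5.26% by TMM-scaled CPM. Its log2 change was 0.67 ± 0.20 (adjusted p = 0.504), smaller than in the rumen by its estimate. ENSOARG00000018171 had the largest estimate, at 1.23 ± 0.50 (adjusted p = 0.649), and the other 4 lay between -0.07 and 0.57.

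The difference of the age change between rumen and reticulum was tested by an interaction term in the 12 libraries. By edgeR it was called for 0 of the 6 genes and for 0% of all genes tested (502 of all genes at an unadjusted p under 0.05; DESeq2 called 8 and limma-voom 0). The estimates were log2 0.90 ± 0.39 for ENSOARG00000005159, a larger rise in the rumen, and -1.26 ± 0.68 for ENSOARG00000018171, a larger rise in the reticulum, both at an adjusted p of 1.

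**Figure D4:**
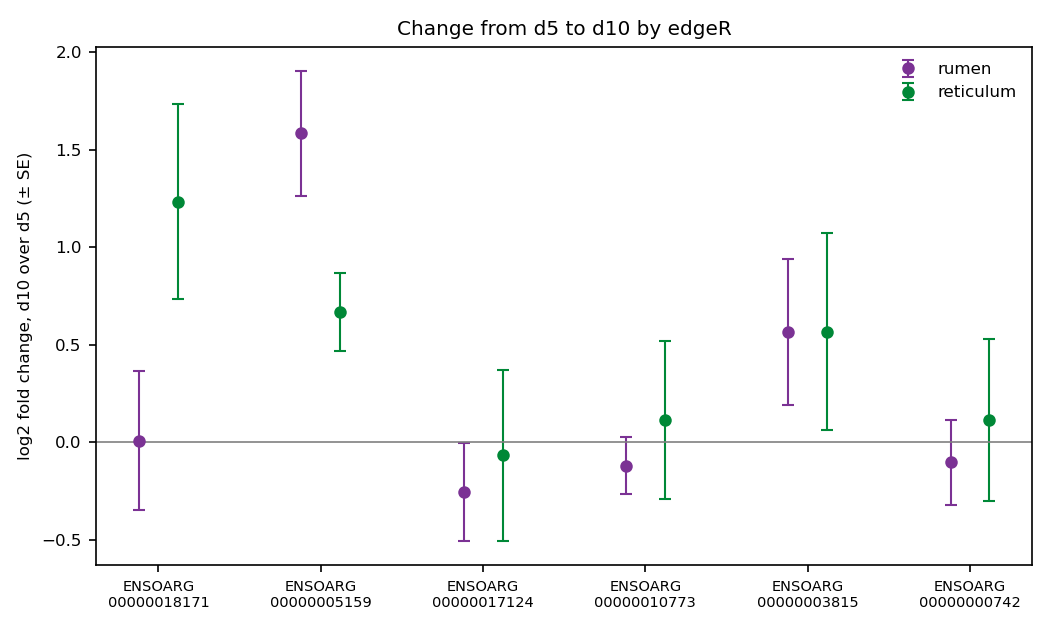
Log2 fold change from d5 to d10 (vertical axis, edgeR, positive when higher at d10) of the 6 genes in rumen and reticulum; bars are ± 1 SE of fits with 3 libraries at each age. The rumen change of ENSOARG00000005159, at 1.58, is the 1 call among the 12 points.

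The abomasum divided the 6 genes. Its mean was below every one of the 4 omasum libraries for ENSOARG00000005159 (2.27 CPM), ENSOARG00000010773 (0.23 CPM) and ENSOARG00000000742 (8.57 CPM). It was within the omasum range for ENSOARG00000018171 (43.9 CPM), and above the omasum maximum for ENSOARG00000003815 (3.45 CPM) and ENSOARG00000017124 (116 CPM). All 6 abomasum libraries were above that maximum for ENSOARG00000017124. For ENSOARG00000003815 only 2 were above it, and 3 lay below the omasum minimum. Its abomasum median was 1.43 CPM, below the omasum median of 1.73 CPM, so that its mean rests on a few high libraries. Abomasum d5 library 2 held the highest abomasum value of ENSOARG00000018171, ENSOARG00000010773 and ENSOARG00000003815. In that library the 27 abomasal genes were at 62.4% of their mean level in the abomasum, while the remaining 5 abomasum libraries ran from 87.1% to 136%. A sum over 39 genes set apart in the rumen by the same kind of rule was at 0.0848% of its rumen level there, within the 0.0492% to 0.0854% of all 6. Those genes were chosen for at most 1% of their rumen minimum in every abomasum library. A low sum there was thus set by the choice, and nothing is read from it. The part of these differences between libraries in the abomasum values of the 3 genes was not tested.

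The 39 genes set apart in the rumen were at 94.2% of their rumen level in omasum d5 library 1 and at 4.87% in library 2. The 27 abomasal genes were at 7.37% and 94.1% of their abomasum level. A low value in library 2 is therefore not read as a low omasum. The rule did not use omasum d5 libraries 1 and 2. They held values at or below 50% of the rumen minimum in 11 of 12 cases. The exception was ENSOARG00000017124 in library 2, at 38.7 CPM or 68.1% of the rumen minimum, against 53.2 to 171 CPM in the abomasum at d5. Library 2 enters this count although its low values are not read as omasum. In library 1 alone the genes ran from 7.22% to 36.4% of the rumen minimum. The share of all genes is not given for these values, and nothing is read from them about the genes as a set. For ENSOARG00000005159 libraries 1 and 2 held 5.34 and 2.24 CPM, below the 10.9 to 15.7 CPM of the other omasum libraries. The abomasum at d5 held 0.78 to 1.66 CPM. Library 2 held 0.22 CPM of ENSOARG00000010773, against 2.62 to 5.45 CPM in the other omasum libraries. ENSOARG00000018171 was at 47.9 CPM in library 1, within the 26.1 to 72.5 CPM of the abomasum at d5. In library 2 it was at 20.04 CPM, below that range. The part of abomasal RNA in these values was not tested.

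Across all 24 libraries, the log2 CPM of pairs of the 6 genes had a Pearson r of up to 0.92 (ENSOARG00000010773 with ENSOARG00000005159), and the 5 pairs with ENSOARG00000017124 ran from -0.22 to 0.31. Within the 16 libraries of rumen, reticulum and the 4 of the omasum, all 15 pairs were between 0.61 and 0.90. The rule set the genes high in the rumen and low in the omasum, so that such values follow in part from the choice. Within the 6 rumen libraries alone, the pairs ran from -0.72 (ENSOARG00000003815 with ENSOARG00000017124) to 0.65 (ENSOARG00000003815 with ENSOARG00000018171). The libraries share depth and scaling, and these values are given as a description.

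Outside the 6 genes, the pattern most like their mean (Pearson r of log2 CPM over 24 libraries, 11589 genes with a mean of 5 CPM or more) was that of ENSOARG00000002395 and that of ENSOARG00000021078, both at r = 0.93. ENSOARG00000002395 was at 89.2 to 241 CPM in the rumen, 24.4 to 58.3 CPM in the reticulum, 3.32 to 9.16 CPM in the 4 omasum libraries and 0.064 to 0.332 CPM in the abomasum. It is 1 of the 8 genes that reached the ratio to the omasum, at 9.74, and failed only the abomasum condition. ENSOARG00000021078 was at 9.88 to 14.7 CPM in the rumen and 4.38 to 6.98 CPM in the omasum, a ratio of 1.42.

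The 8 genes left out by the abomasum condition had ratios of 2.07 to 9.74 and abomasum values of up to 10.6 CPM. The mean of the reticulum lay between omasum and rumen for 8 of 8, at a median position of 0.60 (0.32 to 0.83), against 0.52 (0.17 to 0.66) for the 6 genes. Both sets were chosen on the same rumen and omasum libraries, and the difference between them was not tested.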

How the data were processed

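RNA sequencing of 24 libraries (3 for each of 4 chambers at d5 and d10) was used. The authors deposited raw counts per gene for all libraries together. TopHat2 2.0.13 and CASAVA 1.8 are credited to the processing notes of the submitters. For the counter, the build of the genome, the annotation and the use of strand, the setting was not given in the sources used here, so that overlapping and near-identical genes cannot be told apart. No gene length was used, and levels are compared between libraries and not between genes.

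Chamber, age and number were taken from the labels. Within groups, each of 24 library pairs differed beyond sampling noise (chi-square per degree of freedom 20.2 to 745, genes of 10 or more counts), and each library is 1 replicate. CPM is the count over the library total. Poisson intervals and floors (3 counts) cover counting error only.

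Tests used edgeR 4.0.16 in R 4.3.3 (TMM, filterByExpr, quasi-likelihood test), with DESeq2 1.42.0 and limma-voom (limma 3.58.1) as alternatives. For age, each chamber was fitted on its own 6 libraries, rumen against reticulum and the interaction on their 12 libraries, and reticulum against omasum without omasum d5 libraries 1 and 2. The SE is the log2 fold change over the square root of F. The fits were tested on simulated data. The other alternatives were DESeq2 size factors, filters, blocks, a fit of all libraries, and other thresholds of the rule.

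The genes and lists were chosen with earlier results of these data known. Without symbols, the lists of marker and pathway genes were not run. The rule for genes to name took, by identifier, 2 at each end of the ratio, the position of the reticulum and the age change, the 2 nearest outside the ratio and the 2 most alike in pattern, which covers all 6 genes.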

Additional observations from a re-analysis of the deposited data

Results flagged for a closer look

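Omasum d5 libraries 1 and 2, which entered neither the choice of the genes nor a main test, held 2 of the 6 genes above the other 4 omasum libraries. ENSOARG00000017124 was at 20.7 CPM in library 1 and 38.7 CPM in library 2, against at most 19.9 CPM in the other 4 and 53.2 to 171 CPM in the abomasum at d5. ENSOARG00000003815 was at 2.68 CPM in library 2, against at most 2.67 CPM, a gap below 1 count. The 27 abomasal genes were at 7.37% and 94.1% of their abomasum level in these libraries, and their part in these values was not tested.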

How the results depend on the processing

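The choice of genes depended on its thresholds and libraries. In place of 6 genes it gave 27 at a ratio of 1.5, 2 at a ratio of 3, 14 with no condition on the abomasum and 103 in the d10 libraries of rumen and omasum only, of which 5 were among the 6. Leaving out 1 rumen or omasum library gave 6 to 15, with 12 without rumen d10 library 1, 15 without omasum d5 library 3 and 10 without omasum d10 library 3; all 6 were kept each time. TMM-scaled library sizes gave 8, with all 6 kept, and all 6 omasum libraries gave 5, without ENSOARG00000017124. The median position of the reticulum ran from 0.48 to 0.57 without any one reticulum library, and none of its alternatives moved it by more than the SD over libraries.

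Of the 6 genes, the 1 called for age in the rumen was 0 in a fit of all 24 libraries and 0 with a replicate block, and 0 to 1 without any one library. For rumen against reticulum the 4 calls were 2 in the fit of all 24 libraries and 2 to 5 without any one library. For reticulum against omasum the 2 calls were 4 in DESeq2, 4 with all 24 libraries, 0 in the d10 libraries only (a fit chosen after seeing the data, as was that of the 12 libraries of both chambers) and 1 to 3 without any one library. Age in the reticulum and the interaction gave 0 calls in all alternatives, including 0 to 0 without any one library.

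Over all genes, age in the rumen (1430) gave 2480 in DESeq2 and 281 with all 24 libraries, and 187, 205, 316 and 301 without rumen d5 library 1, 2 or 3 or d10 library 1. Rumen against reticulum (2087) gave 1209 with all 24 libraries and 993 to 2634 without any one library. Reticulum against omasum (41) gave 297 in DESeq2, 69 in limma-voom, 73 with no filter, 21 with a replicate block, 269 with all 24 libraries, 96 with 12, 0 at d10 and 5 to 64 without any one library. Age in the reticulum (0) gave 149 in DESeq2, 13 with no filter, 14 with all 24 libraries, 6 with a replicate block and 0 to 11 without any one library; the interaction (0) gave 8 in DESeq2 and 0 to 7.

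Signs turned only for uncalled changes near 0. For age in the rumen, ENSOARG00000018171 turned to -0.12 in limma-voom and -0.12 with the replicate block, and ran from -0.57 to 0.25 without any one library (ENSOARG00000000742: -0.36 to 0.0181). In the reticulum, ENSOARG00000000742 turned to -0.0413 and -0.0466 under the same settings and ran from -0.50 to 0.41, ENSOARG00000010773 from -0.26 to 0.54 and ENSOARG00000017124 from -0.35 to 0.32. In the interaction, ENSOARG00000003815 turned to 0.0409 in limma-voom and ran from -0.42 to 0.53, ENSOARG00000000742 from -0.50 to 0.39, ENSOARG00000017124 from -0.58 to 0.0949 and ENSOARG00000010773 from -0.66 to 0.15. The cause was not tested.

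Deviations from the group means went together in 5 of 6 pairs of equal number between rumen and reticulum (r over 0.1; lowest 0.087, highest 0.43), and 12 of 12 libraries correlated best with their own number. As 1 pair was below 0.1, this hint was not taken to pair the libraries. For age, the replicate block joins lambs of different ages. With it, the adjusted p of ENSOARG00000005159 for age in the rumen was 0.0518, and no other call of the 6 changed. The omasum at d5 rests on 1 library, and the smallest difference that 3 libraries a group can show was not worked out.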

Other observations

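The opposite rule, an omasum minimum of at least 5 CPM and at least 2 times the rumen maximum in the same libraries, gave 155 genes, against 14 for the rumen over the omasum before the condition on the abomasum. The rumen minimum is taken over 6 libraries and the omasum minimum over 4, so that both rules differ in how many libraries they demand, and the counts were not tested against each other.

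The 103 genes given by the d10 libraries alone did not include ENSOARG00000005159. Its rumen minimum there was 156 CPM, and its highest abomasum value of 4.96 CPM is below 5% of that, so that it failed the abomasum condition there.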
